A study of Mus musculus with 12 samples.

Results

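Lung identity is set in the embryo and held in the adult by a small set of transcription factors. The 10 described here are the epithelial factors Nkx2-1, Foxa1, Foxa2, Gata6, Sox2, Sox9 and Elf3 and the mesenchymal factors Foxf1, Tbx4 and Tbx5. They were chosen by name, and each matched 1 of the 78298 gene rows of the deposited count table. RNA had been sequenced from LLC tumours and normal adjacent lung of mice given HDM (house dust mite) or VEH. Each treatment had 3 tumour and 3 normal libraries, 12 in all. The series describes the exposure as chronic and the normal tissue as matched. Strain, genotype, age, sex, dose and schedule are not given in the sources used here, nor is it stated whether replicates came from separate animals, so p-values measure the spread between these samples. LLC and VEH are not spelled out in the labels and are used as given. The labels therefore do not say how the tumours arose, or which of their cells come from the host lung.

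NKX2-1 is the defining factor of the lung field in foregut endoderm, and in the adult it drives surfactant and secretory genes together with FOXA1, FOXA2 and GATA6. SOX2 marks the proximal airway side of the branching epithelium, whereas SOX9 marks its growing distal tips and also directs cartilage formation. In the surrounding mesenchyme FOXF1 responds to hedgehog signals from the epithelium, and TBX4 and TBX5 sustain the growth signals that drive budding and branching.

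Total counts per library ran from 20608682 to 32765364. Expression is given as CPM, the usual depth-scaled count, after scaling of the libraries by TMM, and between genes as FPKM, which also divides by gene length. Library names carry 6 prefixes, each shared by 1 normal and 1 tumour library. For 2 prefixes the treatments of these libraries conflict. Normal VEH replicate 2 shares a prefix with tumour HDM replicate 2, as does normal HDM replicate 3 with tumour VEH replicate 3. Test outcomes of the factors described here that change without these 4 libraries are given beside the values. Marker genes, other gene lists and noncoding neighbours were not examined gene by gene without these libraries. Whether their outcomes hold without them was therefore not tested. The libraries also differed in tissue content. Tumour VEH replicate 2 held the most lung marker RNA among the tumours, with alveolar type 2 markers at 26.6% of the mean of the 6 normal libraries, against 7.53% to 8.27% in 4 other tumours and 0.221% in tumour HDM replicate 3. None of the 7 alveolar type 2, 7 alveolar type 1 or 8 endothelial markers was at 0 counts in any library, normal or tumour.

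Only 6 of the 10 genes had a promoter window in the RefSeq table (GRCm38.p6): Nkx2-1, Foxa1, Foxa2, Sox2, Tbx4 and Elf3. Those of Foxa1, Foxa2 and Tbx4 are shown because they hold letters that factors of this set are known to bind. Each is the part of the 250 bases before a RefSeq start that lies in no annotated exon, located by exact match in GRCm39, and each falls inside the gene's annotated span. In Foxa1 (chr12:57592945-57593147, minus strand) the capitals mark GTAAACA, the reverse complement of the forkhead letters TGTTTAC. In Foxa2 (chr2:147887385-147887634, minus strand) they mark TTTATA, the reverse complement of the TATA box letters TATAAA, and CTTGAG, the reverse complement of the NKX2-1 letters CTCAAG. In Tbx4 (chr11:85787341-85787590, plus strand) they mark CTTCCTG, the reverse complement of the ETS letters CAGGAAG, the kind bound by ELF3, and TTTATA.
Foxa1: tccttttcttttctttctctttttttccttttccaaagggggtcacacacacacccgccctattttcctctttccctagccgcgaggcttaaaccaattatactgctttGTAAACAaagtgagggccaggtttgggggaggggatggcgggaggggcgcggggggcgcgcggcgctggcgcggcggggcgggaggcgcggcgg
Foxa2: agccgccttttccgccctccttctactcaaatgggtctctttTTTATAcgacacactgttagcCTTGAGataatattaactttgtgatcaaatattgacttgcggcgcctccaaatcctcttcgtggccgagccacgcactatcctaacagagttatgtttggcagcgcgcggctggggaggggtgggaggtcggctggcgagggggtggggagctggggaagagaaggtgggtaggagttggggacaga
Tbx4: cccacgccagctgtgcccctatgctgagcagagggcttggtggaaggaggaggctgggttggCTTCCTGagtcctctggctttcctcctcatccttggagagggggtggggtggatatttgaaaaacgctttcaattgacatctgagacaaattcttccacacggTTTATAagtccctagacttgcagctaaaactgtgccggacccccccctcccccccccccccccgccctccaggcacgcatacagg

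Both strands were searched, and a match is a description of letters, not of binding. TGTTTAC occurred in 3.17% of 32851 windows of all genes, CTCAAG in 13.3%, CAGGAAG in 10.8% and TATAAA in 12.4%. CAGGAAG was also present in the Nkx2-1 window. The other letters searched were the forkhead variant TGTTTGC (4.3% of windows), ACAATGG for SOX2 and SOX9 (3.02%), AGATAAG for GATA6 (2.74%) and AGGTGTG for TBX4 and TBX5 (5.1%). None of these was found in the 6 genes' windows. Foxa2 also had windows at chr2:147888890-147889139 and chr2:147887869-147888118, which held no match to any of the letters searched. The shares are per window, not per gene.

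In normal lung Foxf1 and Nkx2-1 stood above the other factors per length. Mean FPKM in normal VEH was 98.1 ± 45.6 (SD, n = 3) for Foxf1 and 66.8 ± 7.02 for Nkx2-1, whose libraries overlapped. The next in order were Foxa2 at 22.8, Foxa1 at 19.2, Sox2 at 18.0, Elf3 at 16.9 and Tbx4 at 12.4 FPKM, each overlapping its neighbour in the order. Gata6 (8.66 FPKM) did not overlap Tbx5 (3.34 FPKM), and Sox9 came last at 0.500 ± 0.727 FPKM, below Tbx5 without overlap. In normal HDM the order began in the same way, with 88.6 FPKM for Foxf1, 75.2 for Nkx2-1 and 25.7 for Foxa2, and Sox9 was again last at 0.466. Tumours had another order. Sox9 led at 9.81 ± 2.52 FPKM in tumour VEH, overlapping Nkx2-1 (9.71), Elf3 (9.56) and Foxf1 (8.95), and at 11.3 ± 3.47 FPKM in tumour HDM, where it did not overlap Nkx2-1, the next at 3.27. Tbx5 was last in both tumour groups, at 0.319 and 0.240 FPKM.

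**Figure D1:**
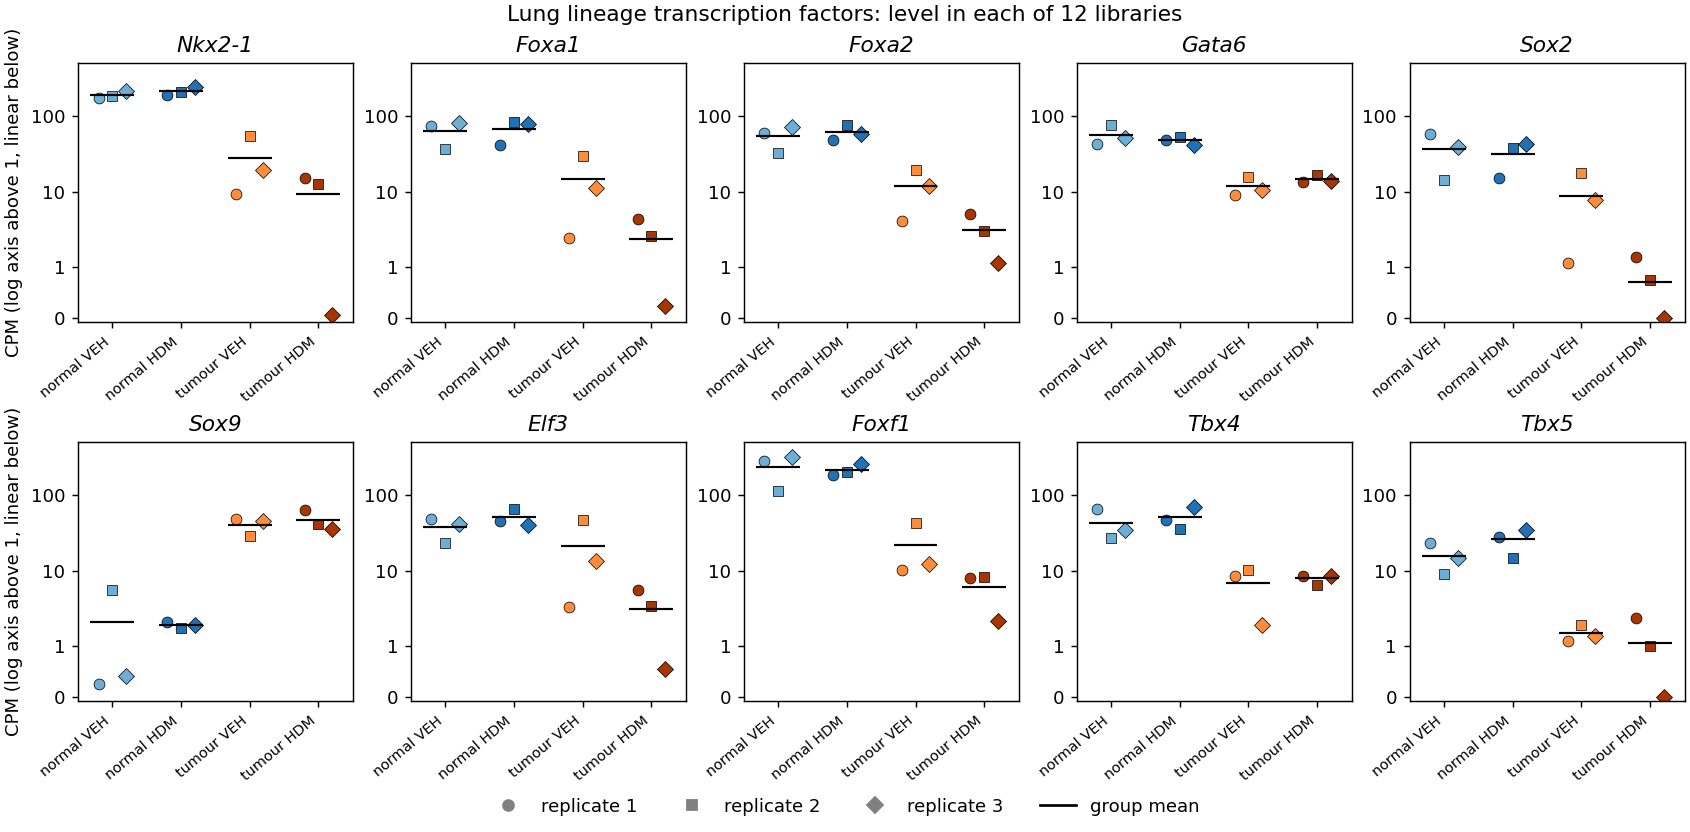
CPM of each of the 10 factors in the 12 libraries by group (log axis above 1 CPM, linear below), with a point for each library. Tumour libraries lie below normal libraries for Nkx2-1, Foxa1, Foxa2, Gata6, Foxf1, Tbx4 and Tbx5 and above them for Sox9, while Sox2 and Elf3 overlap because of tumour VEH replicate 2.

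The comparison of tumour with adjacent lung asked which of the factors differ between the tissues under each treatment. Sox9 was higher in tumour under both treatments, and the other 9 had lower means. Under VEH 6 of the 10 passed the test (edgeR quasi-likelihood, Benjamini-Hochberg adjusted p below 0.05 over all genes), 1 higher and 5 lower, where 38.9% of the 22190 genes tested were called (18.2% higher, 20.6% lower). Under HDM all 10 passed, 1 higher and 9 lower, where 51.9% were called (23% higher, 28.9% lower). The 3 tumour and 3 normal libraries did not overlap for 8 of the factors under VEH and for all 10 under HDM, beside 52.4% and 63.1% of all genes. The median log2 fold change of the 10 was -2.22 under VEH and -4.42 under HDM, beside -0.11 and -0.08 over all genes tested. With scaling by library size alone these last medians were 0.03 and 0.10, and the split of called genes turned to 4797 higher and 3910 lower under VEH (from 4045 and 4579) and 6161 higher and 5723 lower under HDM (from 5110 and 6402). The factors' directions and counts of calls in tumour against normal were the same under that scaling. All 10 had passed the filter on low counts. In bulk tissue, fewer cells of a type and less RNA per cell cannot be told apart. This applies to every value below.

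Nkx2-1 (ENSMUSG00000001496, chr12:56578742-56583722, GRCm39, minus strand) was the steadiest factor in normal VEH lung, with a coefficient of variation of 10.5%. Its CPM was 173, 185 and 212 in normal VEH replicates 1, 2 and 3, 190, 211 and 241 in normal HDM, 9.43, 54.0 and 19.3 in tumour VEH, and 15.2, 12.7 and 0.0607 in tumour HDM. No tumour library reached the lowest normal library. The last value rests on 2 counts, fewer than the 3 counts (0.091 CPM) that a count of 0 would allow there. Under VEH the log2 fold change was -2.78 ± 1.08 (SE) and missed the threshold (edgeR adjusted p = 0.0634). Without tumour VEH replicate 2 the change was -3.72 (adjusted p = 0.0454). The DESeq2 Wald test called Nkx2-1 with all libraries (-2.81, adjusted p = 0.0159), and called 8 of the 10 factors under VEH. Under HDM Nkx2-1 fell by 4.53 ± 1.17 on the log2 scale (edgeR adjusted p = 0.00889), with a change of -3.80 without tumour HDM replicate 3 (adjusted p = 0.00164). Without the 4 libraries of conflicting prefixes the value was -4.60 and no longer passed (adjusted p = 0.0996).

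Foxa1 and Foxa2 encode paired pioneer factors that open chromatin for NKX2-1 and for each other's targets. Foxa1 (ENSMUSG00000035451, chr12:57587414-57593702, minus strand) had 74.6, 36.6 and 80.3 CPM in normal VEH, 41.9, 82.8 and 77.3 in normal HDM, 2.46, 30.1 and 11.2 in tumour VEH, and 4.35, 2.60 and 0.243 in tumour HDM. Foxa2 (ENSMUSG00000037025, chr2:147884797-147889005, minus strand) had 59.0, 32.7 and 70.5, then 47.6, 76.8 and 58.4, then 4.16, 19.6 and 11.9, and then 5.09, 3.01 and 1.15 CPM in the same groups. For both genes tumour VEH replicate 2 was the highest tumour, tumour HDM replicate 3 the lowest, and no tumour overlapped a normal library. Under VEH the log2 change of Foxa1 was -2.13 ± 0.91 (edgeR adjusted p = 0.0848), becoming -3.23 (adjusted p = 0.0317) without tumour VEH replicate 2 and -1.52 (adjusted p = 0.209) without tumour VEH replicate 1. With the DESeq2 Wald test its adjusted p was 0.031. Foxa2 fell by 2.18 ± 0.60 (edgeR adjusted p = 0.0168). That call did not hold when normal VEH replicate 3, tumour VEH replicate 1 or tumour VEH replicate 3 was left out (adjusted p = 0.0538, 0.0523 and 0.0633) or without the 4 conflicting libraries (adjusted p = 0.111). The Foxa2 call was also lost with no filter on low counts. Under HDM both genes passed. Foxa1 fell by 4.83 ± 1.03 (edgeR adjusted p = 0.00344), and Foxa2 fell by 4.31 ± 0.66 (edgeR adjusted p = 0.000601). The Foxa1 value ranged from -5.44 without tumour HDM replicate 1 to -4.13 without tumour HDM replicate 3, and did not pass without the 4 conflicting libraries (adjusted p = 0.0649).

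Gata6 (ENSMUSG00000005836, chr18:11051565-11086995, plus strand) encodes a zinc finger factor of endoderm that acts with NKX2-1 on surfactant genes and is also expressed in smooth muscle and heart. It had 42.8, 75.0 and 51.2 CPM in normal VEH, 48.6, 53.0 and 41.6 in normal HDM, 9.18, 15.8 and 10.4 in tumour VEH, and 13.4, 16.8 and 13.9 in tumour HDM. Its tumour libraries formed a narrow band, and tumour HDM replicate 3 lay within it. Gata6 fell under VEH and HDM, with log2 changes of -2.25 ± 0.26 (edgeR adjusted p = 0.000385) and -1.70 ± 0.25 (edgeR adjusted p = 0.000481), the smallest standard errors of the 10. In every tumour library it kept between 17.6% and 32.2% of the mean of the 6 normal libraries.

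Sox2 (ENSMUSG00000074637, chr3:34704554-34706610, plus strand) is the airway factor of the set. It had 57.0, 14.3 and 39.5 CPM in normal VEH, 15.2, 38.1 and 42.2 in normal HDM, 1.15, 17.4 and 7.66 in tumour VEH, and 1.36, 0.751 and 0 in tumour HDM. A count of 0 in tumour HDM replicate 3 allows up to 0.091 CPM, an upper limit that covers counting error only. The 2 lowest normal libraries, VEH replicate 2 and HDM replicate 1, were also those with the least club and goblet marker RNA (26790 and 24628 CPM summed over 7 markers, against 62329 to 112481 in the other 4). This holds for the sum only. By mean log2 CPM of the 7 markers these libraries were at 7.17 and 7.15. Normal HDM replicate 3, with Sox2 at 42.2 CPM, was lower at 6.57. The part of airway content in the Sox2 values was not tested. Under VEH the log2 change of Sox2 was -2.08 ± 1.05 (edgeR adjusted p = 0.136), and tumour VEH replicate 2 lay above the 2 lowest normal libraries. Without that tumour the change was -3.07 (adjusted p = 0.0739), and without tumour VEH replicate 1 it was -1.45 (adjusted p = 0.304). Under HDM Sox2 fell by 5.53 ± 1.26 (edgeR adjusted p = 0.00471), the largest change of the 10, with no overlap. This value ran from -6.28 without tumour HDM replicate 1 to -4.77 without tumour HDM replicate 3, and did not pass without the 4 conflicting libraries (adjusted p = 0.0739).

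Elf3 (ENSMUSG00000003051, chr1:135181306-135188999, minus strand) encodes an ETS factor of differentiated epithelium. Its CPM was 48.5, 22.9 and 41.3 in normal VEH, 45.2, 65.8 and 40.3 in normal HDM, 3.31, 47.0 and 13.3 in tumour VEH, and 5.50, 3.42 and 0.546 in tumour HDM. Tumour VEH replicate 2 was at the level of normal lung (107% of the mean of the 6 normal libraries), while the other 5 tumours kept between 1.24% and 30.2%. Under VEH the log2 change was -0.82 ± 0.86 with a 95% interval from -2.72 to 1.08 (edgeR adjusted p = 0.458). It was -2.18 (adjusted p = 0.0694) without tumour VEH replicate 2, and -0.21 (adjusted p = 0.853) without tumour VEH replicate 1. Under HDM Elf3 fell by 4.01 ± 0.97 (edgeR adjusted p = 0.00636), with -3.36 without tumour HDM replicate 3. Without the 4 conflicting libraries the adjusted p was 0.0755.

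Sox9 (ENSMUSG00000000567, chr11:112673009-112678586, plus strand) went the other way. It had 0.246, 5.54 and 0.421 CPM in normal VEH, 2.13, 1.74 and 1.91 in normal HDM, 47.7, 28.6 and 45.4 in tumour VEH, and 62.9, 41.1 and 35.8 in tumour HDM. Every tumour library lay above every normal library, and tumour VEH replicate 2, the tumour with the most lung marker RNA, was the lowest tumour. The normal values rest on 6, 176 and 10 counts under VEH and 52, 46 and 52 under HDM. Sox9 rose by 4.26 ± 0.92 on the log2 scale under VEH (edgeR adjusted p = 0.0057) and by 4.59 ± 0.94 under HDM (edgeR adjusted p = 0.00272). The VEH value depends on normal VEH replicate 2, the library with 5.54 CPM: without it the change was 6.91. That library also held the most mesothelial marker RNA of all, 1028 CPM summed over 6 markers against 13.8 and 524 in the other normal VEH libraries. The part of this in the Sox9 value was not tested.

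The mesenchymal factors fell under both treatments. Foxf1 (ENSMUSG00000042812, chr8:121811074-121814883, plus strand), which is required for lung capillaries and mesenchyme, had 281, 112 and 318 CPM in normal VEH, 181, 203 and 258 in normal HDM, 10.1, 42.4 and 12.4 in tumour VEH, and 8.05, 8.27 and 2.18 in tumour HDM. No tumour came near the lowest normal library. It fell by 3.45 ± 0.68 under VEH (edgeR adjusted p = 0.00367), with -4.40 without tumour VEH replicate 2. Under HDM it fell by 5.12 ± 0.74 (edgeR adjusted p = 0.000451). Endothelial markers were also lower in every tumour, their summed CPM ranging from 1287 to 2936 in normal libraries and from 108 to 504 in tumours. All 8 were called lower under each treatment, beside 20.6% of all genes tested under VEH and 28.9% under HDM. Foxf1 is expressed in lung endothelium as well as in fibroblasts and pericytes, and the part of endothelial content in its change was not tested.

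Tbx4 and Tbx5 are related members of the T-box family that act together upstream of Fgf10 in the lung bud. Tbx4 (ENSMUSG00000000094, chr11:85776887-85806923, plus strand) had 65.6, 26.9 and 34.1 CPM in normal VEH, 46.9, 35.1 and 70.2 in normal HDM, 8.50, 10.2 and 1.94 in tumour VEH, and 8.54, 6.49 and 8.61 in tumour HDM. Tbx5 (ENSMUSG00000018263, chr5:119970733-120023284, plus strand) had 23.1, 9.09 and 14.7, then 28.1, 14.9 and 34.8, then 1.19, 1.90 and 1.38, and then 2.34, 1.02 and 0 CPM in the same groups. For both genes every tumour lay below every normal library. The lowest tumours differed: tumour VEH replicate 3 for Tbx4 and tumour HDM replicate 3 for Tbx5. Tbx4 fell by 2.61 ± 0.56 under VEH (edgeR adjusted p = 0.00519) and fell by 2.69 ± 0.56 under HDM (edgeR adjusted p = 0.00286). Tbx5 fell by 3.38 ± 0.98 under VEH (edgeR adjusted p = 0.0214) and fell by 4.55 ± 1.04 under HDM (edgeR adjusted p = 0.00475). The VEH call of Tbx5 did not hold without normal VEH replicate 1, tumour VEH replicate 1 or tumour VEH replicate 3 (adjusted p = 0.0608, 0.0797 and 0.0807), and neither call held without the 4 conflicting libraries (adjusted p = 0.144 and 0.0879) or with the prefix as a block (adjusted p = 0.131 and 0.0648). With no filter on low counts the VEH call of Tbx5 was lost as well. The HDM value of Tbx5 was -5.54 without tumour HDM replicate 1 and -3.81 without tumour HDM replicate 3.

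Tbx5 and Gata6 are also heart genes, and RNA of cardiac muscle markers was present in the normal pieces. Whether it came from heart tissue was not tested. Cardiac muscle markers summed to 22.4 to 267 CPM in normal VEH and 208 to 491 CPM in normal HDM, against 7.85 to 10.7 in tumour VEH and 1.97 to 18.0 in tumour HDM. In normal VEH replicate 1, the library with 267 CPM, 3 of the 12 markers were at 0 counts. Nkx2-5, the defining heart factor, was at 0 counts in normal VEH and at a mean of 0.377 CPM in normal HDM. Smooth muscle and pericyte markers were highest in normal VEH replicate 1 (2022 CPM) and normal HDM replicate 3 (1993 CPM), and Tbx4 was also highest in these libraries. The parts of cardiac muscle and smooth muscle content in the fold changes were not tested.

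**Figure D2:**
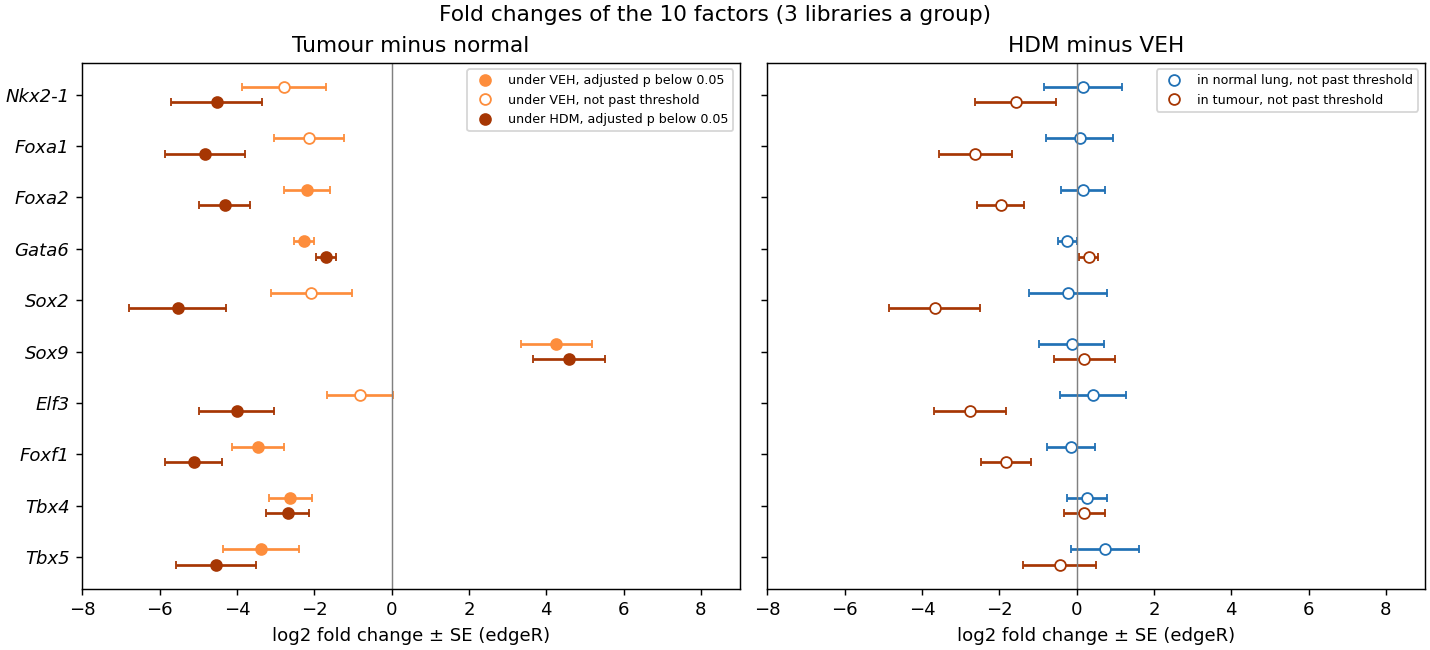
Log2 fold changes of the 10 factors with SE (edgeR) for tumour against normal and HDM against VEH, from 3 libraries a group. Sox9 lies to the right of 0 under both treatments at 4.26 and 4.59, and the other 9 lie to the left in tumour against normal.

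The second comparison asked whether HDM changed the factors within a tissue. In normal lung none of the 10 passed the test, and adjusted p ranged from 0.99 to 1 (edgeR, with 0 of 22190 genes called, 0%). No factor had an unadjusted p below 0.05 there, while 1230 genes had (5.54%). The DESeq2 Wald test called 43 genes but again none of the 10. No estimate was larger than its SE, though that of Gata6 came close (-0.24 ± 0.25). The farthest from 0 was 0.73 ± 0.89 for Tbx5. The narrowest 95% interval was that of Gata6, from -0.78 to 0.31, and the interval of Nkx2-1 ran from -2.06 to 2.41. These intervals leave room for changes of a size that 3 libraries a group did not resolve.

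In tumours none of the 10 passed either (21 genes called, 0.0946%), but the estimates were uneven. Foxa1, Foxa2, Sox2, Foxf1 and Elf3 had an unadjusted p below 0.05 and were lower under HDM, beside 16.7% of all genes at that level in either direction and 11.3% lower. Their log2 changes were -2.62 ± 0.95 for Foxa1, -1.96 ± 0.61 for Foxa2, -3.67 ± 1.18 for Sox2, -1.81 ± 0.65 for Foxf1 and -2.76 ± 0.92 for Elf3, with edgeR adjusted p between 0.201 and 0.232. Only Foxf1 had tumour HDM libraries entirely below the tumour VEH libraries, a pattern seen in 10.7% of genes. Nkx2-1 differed by -1.57 ± 1.05 and Tbx5 by -0.43 ± 0.94. Sox9 (0.20 ± 0.80), Gata6 (0.31 ± 0.25) and Tbx4 (0.19 ± 0.53) had estimates slightly above 0, and the interval of Gata6, from -0.24 to 0.86, was the narrowest. These values rest in part on tumour VEH replicate 2, the tumour with the most lung marker RNA. Without it the changes were -1.52 for Foxa1, -1.39 for Foxa2, -2.68 for Sox2, -0.87 for Foxf1, -1.41 for Elf3 and -0.63 for Nkx2-1, with edgeR adjusted p between 0.545 and 0.909. Without tumour HDM replicate 3 they were -2.04, -1.53, -3.03, -1.38, -2.22 and -0.96 in the same order. Leaving out tumour HDM replicate 1 moved Sox2 to -4.54, Foxa1 to -3.35, Elf3 to -3.41 and Tbx5 to -1.54. The outcome also depended on the test: with the DESeq2 Wald test Foxa1, Foxa2, Sox2 and Elf3 were called lower (adjusted p = 0.0458, 0.0261, 0.0181 and 0.0245).

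The interaction, which tests whether the tumour difference depends on treatment, called none of the 10 and none of the 22190 genes (0%; edgeR). Unadjusted p was below 0.05 for Sox2 (-3.45 ± 1.52), Elf3 (-3.19 ± 1.24) and Foxa2 (-2.13 ± 0.83), all lower, beside 2084 genes (9.39%, and 6.06% lower). The DESeq2 Wald test called 222 genes and none of the 10. For these 3 factors the edgeR adjusted p was 0.526, 0.512 and 0.512 in that order. The larger fold changes under HDM than under VEH in the tumour comparison were thus not shown to differ.

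Most factors were high in the tumour with much lung marker RNA and low in the tumour with little. Tumour VEH replicate 2 was the highest of the 6 tumours for 7 of the 10 factors, and tumour HDM replicate 3 was the lowest for 7. In tumour VEH replicate 2 Nkx2-1 kept 26.8% of the mean of the 6 normal libraries, Foxa1 45.9%, Foxa2 34.1% and Sox2 50.6%. In tumour HDM replicate 3 these were at 0.0301%, 0.370%, 2.0% and 0%, and Foxf1 was at 0.969%. Alveolar type 2 markers went from 26.6% to 0.221%, alveolar type 1 markers from 25.8% to 1.32% and club and goblet markers from 34.4% to 0.00619% between the same libraries. These are percentages of summed CPM. The 7 club and goblet markers had a median log2 change of 2.14 in tumour against normal under VEH and -3.69 under HDM. Their mean log2 CPM in tumour VEH replicate 2 was 10.3, within the normal range of 6.57 to 10.8, and in tumour HDM replicate 3 it was -1.66. In tumour HDM replicate 3 Gata6 still stood at 26.6%, Tbx4 at 18.5% and Sox9 at 1794%.

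Deviations of log2 CPM from the group mean were also compared over the 12 libraries. The sets of factors below were not among the lists fixed beforehand and come from the same libraries. They therefore give the division above no separate support. Among Nkx2-1, Foxa1, Foxa2, Sox2, Elf3 and Foxf1 the 15 pairwise Pearson coefficients ran from 0.77 to 0.99, the latter for Foxa1 with Sox2. Tbx5, outside that set, had coefficients with its members from 0.68 (Foxa2) to 0.91 (Nkx2-1). Sox9, Gata6 and Tbx4 had coefficients of -0.47 to 0.37 with the other 7 factors. All these points share their libraries, and coefficients within tumours or normals alone were not computed. The gene with the most similar deviations was Ppp1r14c for Nkx2-1 (0.997), Aox3 for Foxa1 (0.998), Cfap70 for Foxa2 (0.981), Myb for Sox2 (0.995), Nipal2 for Elf3 (0.992), Gpr182 for Foxf1 (0.992), Tnik for Tbx5 (0.984), Runx2 for Sox9 (0.953), Denr for Gata6 (0.953) and Ap1s2 for Tbx4 (0.926), each the first of 12482 protein-coding genes.

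**Figure D3:**
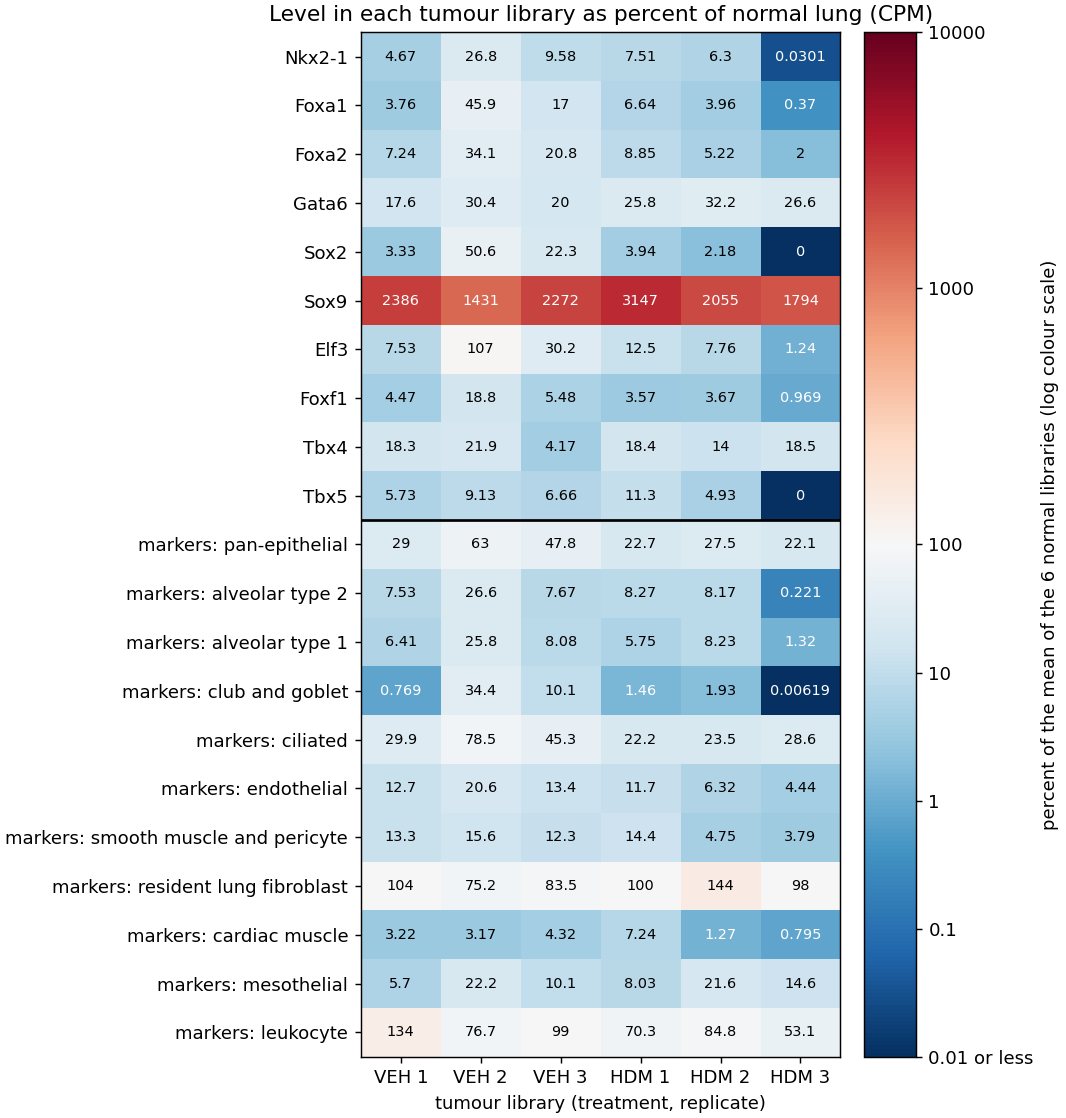
Level of each factor and of summed cell type markers in the 6 tumour libraries as a percentage of the mean of the 6 normal libraries (log colour scale). Tumour VEH replicate 2 is the highest column for 7 of the 10 factors and tumour HDM replicate 3 the lowest for 7, while Gata6 lies between 17.6% and 32.2% and Sox9 between 1431% and 3147%.

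Not every epithelial gene was lower in tumour. Pan-epithelial markers as a sum kept 22.1% to 63.0% of normal, held up by the keratins Krt8 and Krt18. Of the 12 markers, 1 was called higher and 1 lower under VEH, beside 18.2% and 20.6% of all genes tested. Under HDM 0 were called higher and 9 lower, beside 23% and 28.9%. The median log2 changes of the 12 markers were -1.93 and -3.82, and 4 of the 12 were at 0 counts in tumour HDM replicate 3. Krt8 had 377 CPM in normal VEH, 427 in tumour VEH and 284 in tumour HDM, and Krt18 rose slightly under VEH (0.64 ± 0.19, edgeR adjusted p = 0.0217). Epcam, an adhesion molecule of epithelium, averaged 101 CPM in normal VEH and 30.4 in tumour VEH, and fell by 4.06 ± 1.17 under HDM (edgeR adjusted p = 0.015).

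Of 16 genes that NKX2-1 and FOXA factors are known to drive in alveolar and airway cells, 2 were called lower under VEH and 15 under HDM, with none higher. Of all genes tested, 20.6% and 28.9% were called lower, shares that also stand beside the lists that follow. The medians of the 16 were -2.19 and -4.05. The surfactant transporter gene Abca3 fell under both (log2 changes of -1.74 ± 0.29 and -2.85 ± 0.30 under VEH and HDM), as did Lpcat1, which encodes an enzyme of surfactant lipid synthesis (-1.70 ± 0.45 and -2.95 ± 0.47). Sftpc, which encodes the surfactant protein of alveolar type 2 cells, fell by 4.59 ± 1.46 under HDM (edgeR adjusted p = 0.0227). Under VEH its estimate was -2.90 ± 1.35 (edgeR adjusted p = 0.108). Scgb3a1 missed the threshold under both treatments, and had the opposite sign under VEH (2.14 ± 1.88). These genes overlap the alveolar and club marker lists, and are therefore not separate from cell content.

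NKX2-1 is known to hold back gut genes in lung tumours. Of 17 such genes 9 had enough counts to be tested. None was called higher in tumour under either treatment, 1 (Lgals4) was called lower under VEH and 2 (Gkn3 and Muc5ac) under HDM. The median log2 change of the 9 was 0.49 under VEH and -1.99 under HDM, beside -0.11 and -0.08 over all genes tested. Of the gut factors on the list, Pdx1 had no count in any library, and the mean in any of the 4 groups was at most 0.342 CPM for Hnf4a and 0.209 CPM for Cdx2.

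Cartilage genes that SOX9 directs were scarce in all groups. Of 13, only 5 had enough counts to be tested, with 0 higher and 1 lower under VEH (Sox6, -2.91 ± 1.01) and 0 higher and 2 lower under HDM (Sox6 and Hapln1). Acan and Col9a1 had 0 counts in every library, and Col2a1 had a mean of at most 0.0927 CPM in any group.

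Among 36 other epithelial lineage factors 1 was higher and 15 lower under VEH, and 2 higher and 28 lower under HDM, with medians of -1.50 and -2.88. In the rest of this comparison log2 changes are given under VEH and then under HDM. Hopx, an alveolar type 1 factor, fell under both (-3.06 ± 0.49 and -3.82 ± 0.51). Cebpa, which acts in alveolar type 2 cells, also fell (-1.53 ± 0.36 and -2.27 ± 0.37), as did Nfib, a factor of lung maturation (-2.38 ± 0.38 and -2.14 ± 0.38). Etv4, an ETS factor downstream of FGF signals in the distal tip where Sox9 is also active, rose by 3.02 ± 1.00 and 5.46 ± 1.14. Its close relative Etv5 did not rise, but fell under HDM by 1.58 ± 0.38. Wwtr1, a coactivator of the Hippo pathway, rose under HDM by 0.93 ± 0.23, whereas its partner Yap1 missed the threshold (0.07 ± 0.19 and 0.26 ± 0.19).

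Of 24 other mesenchymal and endothelial lineage factors 23 were tested, and here both directions occurred: 3 higher and 12 lower under VEH, 4 higher and 13 lower under HDM, with medians of -1.73 and -1.82. Tcf21, a factor of resident lung fibroblasts, fell under both (-4.01 ± 1.00 and -6.92 ± 1.19). The T-box genes Tbx2 and Tbx3, relatives of Tbx4 and Tbx5 in lung mesenchyme, fell likewise (Tbx2 -3.12 ± 0.70 and -4.53 ± 0.75, Tbx3 -2.81 ± 0.47 and -2.97 ± 0.47). By contrast Prrx1 rose by 2.89 ± 0.67 and 4.09 ± 0.71, Twist1 by 4.41 ± 1.04 and 6.16 ± 1.16, and Gli3 by 2.62 ± 0.40 and 3.16 ± 0.41. Prrx1 and Twist1 are mesenchymal factors known from limb and skull mesenchyme. Dcn, a general fibroblast matrix gene, also rose (1.83 ± 0.47 and 3.66 ± 0.51). The summed resident fibroblast markers, to which Dcn gave most in tumours, were at 75.2% to 144% of normal, although 7 of the 10 were called lower under each treatment. The part of fibroblast content in the changes of Foxf1, Tbx4 and Tbx5 was not tested.

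**Figure D4:**
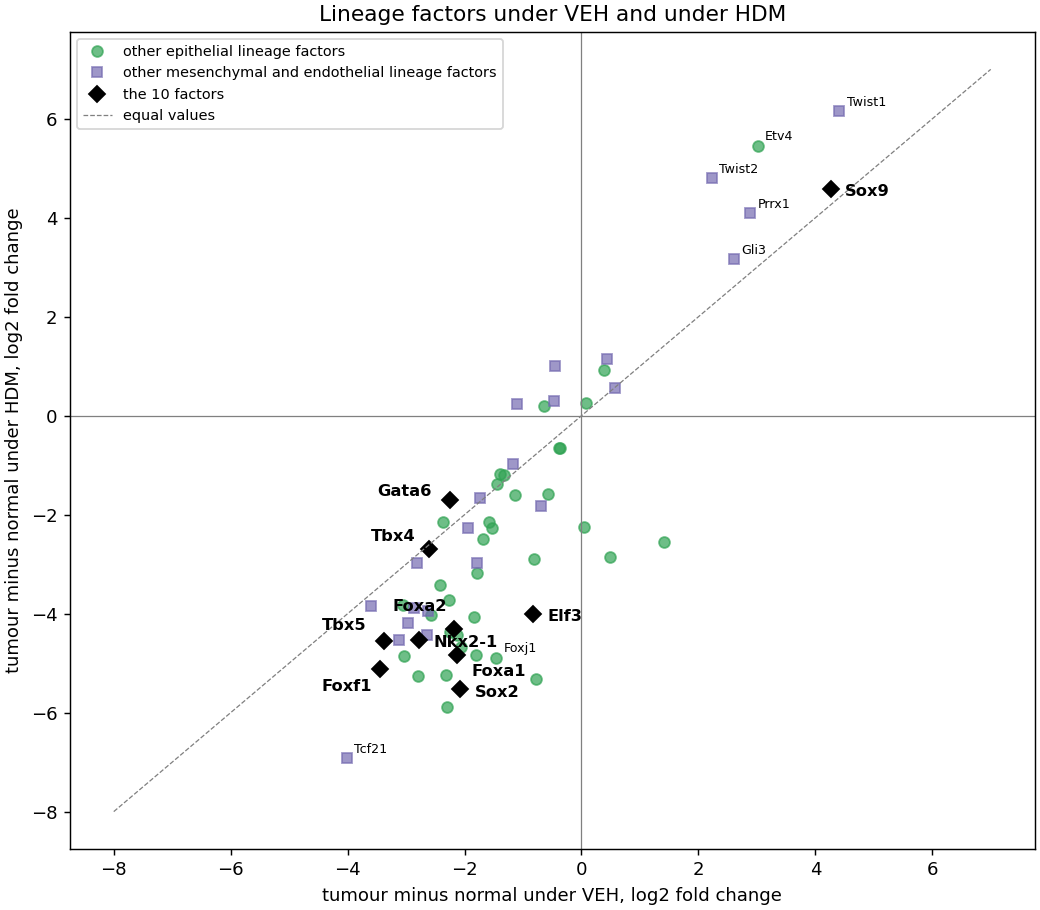
Log2 fold change of tumour against normal under VEH (horizontal) and under HDM (vertical) for the 10 factors and the other lineage factors, without genes at or below 3 counts in every library of a group. Sox9 lies at 4.26 and 4.59, in the region above 0 on both axes that also holds Etv4, Prrx1, Twist1 and Gli3.

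Hedgehog genes, which lie upstream of FOXF1, changed in both directions. Of 11, 1 was higher and 4 lower under VEH, and 1 higher and 6 lower under HDM, with medians of -1.56 and -1.72. The epithelial ligand gene Shh fell by 4.52 ± 1.11 under HDM, from a mean of 23.2 CPM to 1.02. Its receptor gene Ptch1, itself a target of the pathway, fell under both (-1.29 ± 0.32 and -1.38 ± 0.32), and so did Hhip, another target and inhibitor (-2.69 ± 0.86 and -3.25 ± 0.88). The signal transducer gene Smo rose by 1.27 ± 0.26 and 1.79 ± 0.26. The target Gli1 had means of 4.72 and 4.67 CPM in normal lung under VEH and HDM and of 3.39 and 5.78 CPM in tumour, and was not called.

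Of 15 noncoding genes tested that overlap a factor or start close to it, 1 was called higher and 8 lower under VEH, and 1 higher and 13 lower under HDM. Fendrr, which starts 1225 bases from Foxf1 on the opposite strand and shares no exon base with it, fell under both (-4.43 ± 1.08 and -5.58 ± 1.15). Sfta3, on the strand of Nkx2-1, fell too (-3.64 ± 1.02 and -4.92 ± 1.09), so it passed under VEH (edgeR adjusted p = 0.0183) where Nkx2-1 did not. The noncoding gene 9030622O22Rik, beside Foxa2, fell as well (-3.31 ± 1.02 and -5.37 ± 1.17). Gm58647, beside Gata6, was called lower under both, but had only 97 counts over the 12 libraries. Gm60930 beside Foxa1 and Sox2ot and Gm64674 beside Sox2 were called lower under HDM alone, and Gm59570 beside Nkx2-1 under neither.

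Some factors share exon bases with a gene on the other strand, and whether counting used the strand is not given in the sources used here. Reads of such pairs cannot be told apart if it did not. BC006965 shares 542 exon bases with Sox9 (2195 counts against 7132) and rose by 4.34 ± 0.96 and 4.80 ± 0.98. Gata6os shares 1154 with Gata6 (680 against 10506 counts), and fell (-2.82 ± 0.45 and -1.23 ± 0.42). Gm56049, a miRNA gene, shares 98, its whole length, with Foxf1 (2369 against 36902 counts), and fell (-2.91 ± 0.65 and -5.10 ± 0.73). Gm64654 shares 1233 with Sox2 (4912 against 6027 counts), and like it was called lower under HDM alone. Gm43050 shares 194 with Tbx5 (993 against 3421 counts) and Gm26973 shares 110 with Nkx2-1 (1399 against 34703 counts), and both were called lower under both treatments. Gm26642 shares 162 with Elf3 (8269 against 8714 counts) and did not follow it in size: it had log2 changes of -0.10 ± 0.26 under VEH and -1.21 ± 0.27 under HDM, where only the latter passed.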

How the data were processed

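RNA was extracted from dissected, frozen tissue and sequenced from both ends after stranded dUTP library preparation, per the labels' protocols, which leave poly(A) selection or ribosomal depletion undecided. Trim Galore, STAR, Subread and featureCounts and the build mm39 are named in the submitters' processing notes. Versions, annotation and strand setting are not given in the sources used here. The authors deposited raw counts per gene with gene lengths, per the file headers. All 12 columns matched samples.

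Identifiers were matched to GENCODE M39: 78168 of 78298 occurred there, 62058 with the deposited length, and the others held 0.143% of counts. In R 4.3.3, edgeR 4.0.16 fitted 1 coefficient per group to the 12 libraries after filterByExpr (minimum count 10, leaving 22190 genes) and TMM, with robust quasi-likelihood F-tests, two-sided, and Benjamini-Hochberg adjustment over all genes in each of 5 comparisons. A gene was called at an adjusted p below 0.05. SE is the absolute log2 change over the root of F. Intervals and limits cover counting error only where they come from counts. Likeness used log2 CPM with prior count 2. The script was tested on simulated data.

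The 10 genes, marker and gene lists and tests were chosen with earlier results of these data known. All 10 are named, from each list up to 4 called genes per direction with the highest mean CPM and genes against the main direction, and tested noncoding neighbours starting within 10000 bases of a factor's start or overlapping it. Other list genes named, such as Krt8, Epcam, Dcn, Tcf21, Tbx3, Etv5, Gli1 and those not called, were chosen after their values were seen. Alternatives were scaling by library size or DESeq2 size factors, no filter, at least 10 counts in every library, the DESeq2 1.42.0 Wald test, only the compared groups, blocks for replicate number or prefix, removal of the 4 conflicting libraries and of each library in turn. Removal of tumour VEH replicate 2 with tumour HDM replicate 3 was chosen after seeing the data.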

Additional observations from a re-analysis of the deposited data

How the results depend on the processing

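No factor called in the main test changed direction under the alternatives run, but the split of all called genes in tumour against normal did. Under VEH (4045 higher, 4579 lower) it became 4797 and 3910 with library size scaling, 3530 and 3318 with no filter, 3061 and 2722 with the prefix block, 3534 and 2069 without the 4 conflicting libraries, 3282 and 2451 without tumour VEH replicate 1 and 3470 and 2477 without tumour VEH replicate 3. Under HDM (5110 higher, 6402 lower) it became 6161 and 5723 with library size scaling, 4476 and 4029 without the 4 conflicting libraries and 4980 and 4842 without tumour HDM replicate 3. Of the single fold changes of the 10 factors, 785 kept their side of the threshold, 17 lost it and 13 gained it. In tumour against normal under HDM, 5 of the 10 were called under the stricter filter (10 or more counts in each library), which only those 5 passed, and 5 without the 4 libraries of conflicting prefixes; leaving out each library gave 10 each time. Under VEH, leaving out each library gave 4 to 8 called factors, and without tumour VEH replicate 2 and tumour HDM replicate 3 all 10 were called. With no filter 4 factors were called under VEH, without Foxa2 and Tbx5. In HDM against VEH in tumours DESeq2 called 4 factors. Over all genes, that comparison called 21 genes, against 8 with library size scaling, 52 with no filter, 53 under the stricter filter, 1311 with DESeq2, 0 with only the groups compared, 0 without the 4 conflicting libraries, 1 with the replicate block, 0 with the prefix block and 0 to 24 leaving out each library. DESeq2 also called 43 genes for HDM in normal lung and 222 for the interaction. The interaction count was 0 to 6 leaving out each library and 1 without tumour VEH replicate 2 and tumour HDM replicate 3. Tumour against normal under VEH called 5603 genes without the 4 conflicting libraries and 5733 to 9070 leaving out each library, 9456 without tumour VEH replicate 2 and tumour HDM replicate 3. The cause of these shifts was not tested.

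Libraries with the same replicate number did not pair: deviations of 18 such pairs correlated between -0.355 and 0.303, and those of 6 pairs with the same prefix between -0.22 and 0.179, against -0.526 to 0.544 for 33 other pairs. With the replicate block 6 factors were called under VEH and 10 under HDM in tumour against normal, and none in the other comparisons. With the prefix block 5 were called under VEH and 9 under HDM, Tbx5 being lost in both. That block also moved Nkx2-1 under HDM to -5.83, Sox2 under VEH to -2.72 and Sox9 to 5.92 under VEH and 3.99 under HDM. Depth limits the lowest values: Nkx2-1, Sox2 and Tbx5 had 3 counts or fewer in tumour HDM replicate 3.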

Other observations

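The signals that drive lung budding, of which TBX4 and TBX5 act on the FGF branch, changed in both directions. Of 12 genes, 2 were higher and 7 lower in tumour than in normal tissue under VEH, and 2 higher and 6 lower under HDM, with median log2 changes of -2.40 and -2.47 (edgeR). Wnt7b, an epithelial ligand of the growing tip, rose from 15.9 to 119 CPM under VEH (log2 change 2.90 ± 0.41) and from 10.46 to 101 CPM under HDM (3.27 ± 0.41). Spry2, a feedback inhibitor of FGF signalling, rose by 1.66 ± 0.33 and 1.99 ± 0.33. Wnt2, a mesenchymal ligand that specifies the lung field, fell (-4.35 ± 0.85 and -6.98 ± 1.02), and so did Wnt2b (-2.70 ± 0.56 and -2.48 ± 0.55). Fgfr2, the epithelial receptor for FGF10, fell as well (-2.89 ± 0.83 and -4.59 ± 0.89). Fgf10 itself had 15.5 CPM in normal VEH, 13.5 in normal HDM, 26.2 in tumour VEH and 30.7 in tumour HDM, and its estimates of 0.75 ± 0.49 and 1.18 ± 0.50 missed the threshold (edgeR adjusted p = 0.237 and 0.0673). None of the 12 was called for HDM against VEH in either tissue.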
